A study of Mus musculus with 5 samples.

Results

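The calcium/calmodulin-dependent protein kinases are a family of 10 genes (Camk1, Camk1d, Camk1g, Camk2a, Camk2b, Camk2d, Camk2g, Camk4, Camkk1 and Camkk2), here described in mitral valve leaflets of mice. The members were taken by symbol from the 24062 genes of the count table, and all 10 were present and passed the filter on low counts. The family was chosen because of the pattern of Camk1d between the genotypes. Its values and those of its relatives in that comparison are therefore given as a description, with no test on any member. RNA of the leaflets was sequenced in 5 libraries, 2 titled wild type (WT) and 3 titled knockout (KO), to follow the loss of Ift88, a component of the transport machinery that builds cilia. By the genotype labels every animal carried NfatC1Cre(+), a Cre driver of the endocardial lineage, so WT and KO share the driver. The labels write Ift88f/f for WT and Ift88+/+ for KO, which is the reverse of the titles. The groups below follow the titles, so every direction below is that of the libraries titled KO against those titled WT. The labels give no age, nor do they say whether each library came from a separate animal, so the spread between libraries may in part be technical.

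When calcium enters the cytosol it binds calmodulin, and the complex opens the catalytic site of these kinases. CaMKK1 and CaMKK2 are the upstream kinases, which phosphorylate and so activate the CaMKI enzymes and CaMKIV, and CaMKK2 also phosphorylates AMPK. CaMKII forms large rings of subunits that phosphorylate each other and stay active after calcium has fallen; in the heart its main gene is Camk2d, with Camk2g beside it, whereas Camk2a and Camk2b are best known from the brain. Camk4, best known from neurons and T lymphocytes, encodes a mostly nuclear kinase that acts on CREB.

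Library totals ran from 23361414 to 53789026 counted reads, and levels are given as CPM, a gene's reads relative to the library total after scaling by TMM. Ift88 itself was measured at 7.54 and 19.8 CPM in the WT libraries against 3.0, 3.92 and 0.409 CPM in the KO libraries, in the order of their replicate numbers, so it went with the titles. Markers of valve interstitial cells (10 of 10) and of endothelium and endocardium (8 of 8) were above the level of 3 reads in every library. Every KO library was above both WT libraries for 6 of 10 interstitial markers, 4 of 8 endothelial and endocardial and 2 of 10 cardiomyocyte. The same held for 2 of 6 smooth muscle, 2 of 7 nerve and Schwann cell, 1 of 8 macrophage and granulocyte and 0 of 6 T lymphocyte markers. Over all genes tested the share was 13.5%. Col1a1, a collagen of interstitial cells, stood for example at 39.7 and 46.3 CPM in the WT libraries against 319, 507 and 263 in KO, and Vwf of endothelium at 9.86 and 52.8 against 135, 175 and 190. Syn1, counted among the nerve and Schwann cell markers, was in KO replicate 1 only at the level of 3 reads. It stood there at 0.0948 CPM against 0.0761 in WT replicate 1. The part of the tissues of all these markers in the results below was not tested. WT replicate 2 stands apart in its make-up. The summed level of 10 cardiomyocyte markers, which include Myh6, Tnnt2 and Ttn, was 102 CPM there against 55898 in WT replicate 1 and 27532 to 37012 in the KO libraries, with none of the 10 at 0. WT replicate 1 was in turn lowest in endothelial and endocardial markers, at 259 CPM against 1907 in WT replicate 2 and 1374 to 2393 in KO. Since Camk2d and several relatives are made in heart muscle, fold changes are given below also without each WT library. Where the WT library that is left has 0 reads, such a value depends on the prior count and is no bound. In bulk tissue, fewer cells of a type and less RNA per cell cannot be told apart.

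**Figure D1:**
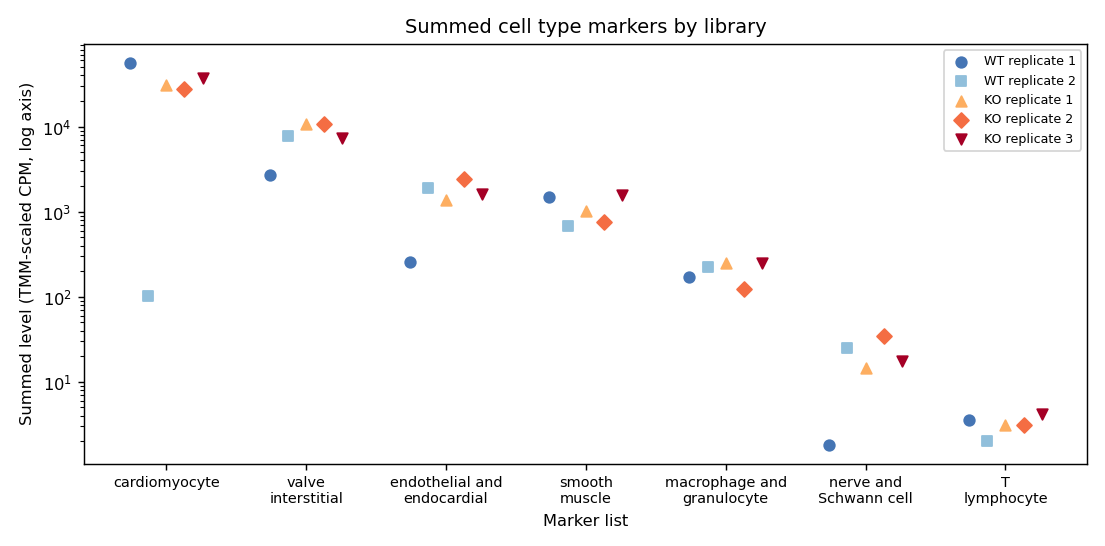
Summed TMM-scaled CPM of 7 marker lists, drawn on a log axis with 1 point a library. WT replicate 2 has 102 CPM of cardiomyocyte markers against 27532 to 55898 in the other libraries, and WT replicate 1 is lowest for the endothelial and endocardial list, at 259.

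Camk1d encodes CaMKI delta, a CaMKI enzyme also known from granulocytes. It lies on the minus strand of chromosome 2, at 5293457 to 5714515 in GRCm38 (GENCODE M21), a span of 421059 bases with a longest transcript of 6962 nt and no exon shared with another gene. RefSeq gives it 2 start sites. The sequences before them are shown because the gene counts cannot tell which start the reads in KO came from, with the sequence before Camk1, its most abundant relative, for contrast. Bases that lie in an annotated exon were left off, and capitals mark matches to the motifs searched.
Camk1d, first start (chr2:5714861-5715012, minus strand, GRCm38.p6): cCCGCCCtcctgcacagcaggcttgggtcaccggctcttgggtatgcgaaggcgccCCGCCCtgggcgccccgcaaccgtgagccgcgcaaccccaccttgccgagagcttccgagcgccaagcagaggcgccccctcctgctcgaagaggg
Camk1d, second start (chr2:5676047-5676231, minus strand, GRCm38.p6): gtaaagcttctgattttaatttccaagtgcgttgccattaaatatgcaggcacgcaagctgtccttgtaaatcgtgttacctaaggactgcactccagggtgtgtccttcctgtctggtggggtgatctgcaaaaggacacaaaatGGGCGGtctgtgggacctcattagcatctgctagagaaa
Camk1 (chr6:113343985-113344172, minus strand, GRCm38.p6): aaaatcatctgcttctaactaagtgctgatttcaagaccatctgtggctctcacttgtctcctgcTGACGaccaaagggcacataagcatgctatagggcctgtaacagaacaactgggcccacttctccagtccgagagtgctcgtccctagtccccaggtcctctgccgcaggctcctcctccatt
The stretch before the first Camk1d start had 15 CpG in 152 bases and a GC content of 72.4%, and that before the second had 4 in 185 bases and 47.0%. The motifs searched on both strands were the CREB element TGACGTCA and its core TGACG, the GC box GGGCGG, the CCAAT box CCAAT and the TATA box TATAAA. The first Camk1d stretch held 2 GC boxes, a motif present in 17.0% of 32851 promoter stretches of that length, and the second held 1 (21.8%). The Camk1 stretch held 1 TGACG core (11.5%). These shares were counted at the far end of the 250 bases before each start, with exon bases kept. The second Camk1d stretch is instead the end nearest its start, so its share is not for the same position. The full CREB element, the CCAAT box and the TATA box were in none of these stretches. Of the 250 bases, 98 and 65 were left off for the first and second Camk1d starts and 62 for Camk1. For the first Camk1d start and for Camk1 these were the bases nearest the start, so a TATA box there would not have been seen.

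Camk1d had 1 read in WT replicate 1 and 0 in WT replicate 2, the deepest library, against 136, 2166 and 1296 reads in KO replicates 1, 2 and 3. These correspond to 0.0381 CPM (95% exact Poisson interval 0.000964 to 0.212) and 0 (up to 0.0639) in WT. In KO they correspond to 4.3 (3.6 to 5.08), 51.1 (49.0 to 53.3) and 53.1 (50.2 to 56.0). Every KO library was thus far above both WT libraries, and KO replicate 1 was 12.4 times lower than KO replicate 3. Group means were 0.019 ± 0.0269 CPM (SD, n = 2) and 36.1 ± 27.6 (SD, n = 3). Pooled over libraries KO was 3068 times as high as WT, with a 95% counting interval of 550 to 121208 that rests on the single WT read. The fitted log2 fold change of 11.08 (SE 1.97) depends on the prior count, and was 9.01 with a prior count of 2. Against WT replicate 1 alone it was 9.75, and against WT replicate 2 alone, with its 0 reads, 13.44. Within the 3 libraries whose titles share a code (WT replicate 1 and KO replicates 1 and 2) the levels were 0.0381, 4.3 and 51.1 CPM. Of the cardiomyocyte markers Myl7, an atrial myosin light chain, likewise had KO replicate 1 far below the other KO libraries. It was at 556 and 10.1 CPM in the WT libraries against 149, 5081 and 6871 in KO. The list as a whole did not share this order, as its sum was 30658, 27532 and 37012 CPM in KO replicates 1, 2 and 3. Myl2 ran the other way, at 4503, 724 and 512 CPM. The part of heart muscle in the Camk1d level was not tested. Markers of interstitial cells and endothelium that were higher in every KO library are given above, and their part in the Camk1d level was not tested. The summed level of the 8 macrophage and granulocyte markers was 172 and 222 CPM in the WT libraries against 123 to 252 in KO. Of the 8, Itgam was above both WT libraries in every KO library, at 0 and 0 CPM in WT against 4.30, 0.142 and 7.53. Lyz2 was below both in every KO library, at 135 and 118 CPM in WT against 103, 64.1 and 86.2. The part of these cells in the Camk1d level was not tested.

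Of 14244 genes tested, 7 (0.0491%) had, as Camk1d does, at most 3 reads over the WT libraries and at least 100 in every KO library, a criterion set after the Camk1d counts were seen. The reverse, at most 3 reads over the KO libraries and at least 100 in each WT library, was met by 0 genes. Both counts depend on the cut-off of 100 reads, and the lowest count of Camk1d in KO was 136. Hmha1 (262, 94 and 182 reads in KO) and Ctnna2 (92, 236 and 141) had 0 reads in both WT libraries and fell just short of the first criterion. Camk4, with 63 reads in KO replicate 3, did not meet it either. Oprl1 (94 and 574 reads in WT) and Fcer1a (98 and 240) had 0 reads in every KO library and fell just short in WT replicate 1.

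Camk1, which encodes CaMKI alpha, the widely expressed form, was the family's most abundant transcript per length. It stood at 244 CPM (95% interval 238 to 250) and 147 (144 to 150) in WT and at 150, 88.0 and 171 in KO. The groups overlapped, with only KO replicate 2 below both WT libraries, and the log2 fold change was -0.52 (SE 0.42). Without WT replicate 1 it was -0.14, and without WT replicate 2 it was -0.84. Camk1 shares 232 nt of exon with Ogg1 on the other strand, and the libraries do not mark strand, but Ogg1 stood at 4.58 to 14.2 CPM in all 5 libraries.

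Camk1g encodes CaMKI gamma, a membrane-anchored form. It had 180 reads in WT replicate 1 and 0 in WT replicate 2, and 238, 658 and 197 in KO, which is 6.85 and 0 CPM against 7.52, 15.5 and 8.07. Every KO library was above both WT libraries, but KO replicates 1 and 3 had counting intervals (6.59 to 8.54 and 6.98 to 9.27) that overlapped that of WT replicate 1 (5.89 to 7.93). The log2 fold change of 1.60 (SE 2.03) was 11.65 without WT replicate 1 (the WT library left has 0 reads) and 0.60 without WT replicate 2, the library with few cardiomyocyte transcripts; the part of that tissue in the Camk1g level was not tested.

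The make-up of the CaMKI transcripts was not the same in all libraries. Per kb of transcript, Camk1 made up 97.3 and 100% of the CaMKI level in WT and 94.5, 72.9 and 86.7% in KO. The share of Camk1d was 0.00523 and 0% in WT, and 0.931, 14.6 and 9.28% in KO. The summed CaMKI level was 105 and 61.3 CPM per kb in WT and 66.3, 50.3 and 82.1 in KO, so the groups overlapped in the sum while they did not in the Camk1d part.

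**Figure D2:**
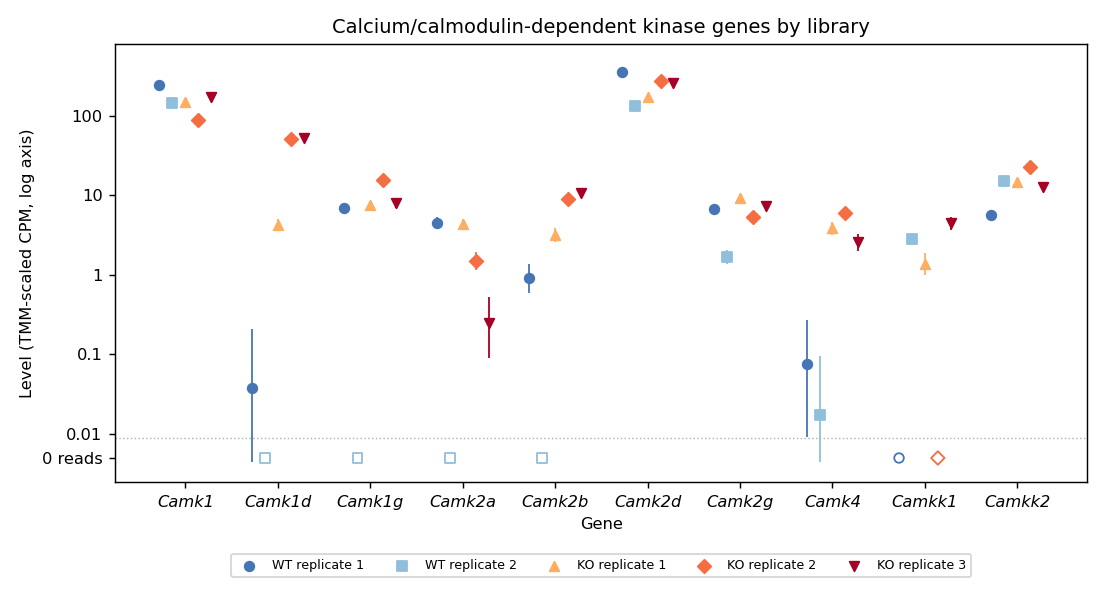
TMM-scaled CPM of the 10 kinase genes, drawn on a log axis with 1 point a library and 95% exact Poisson intervals that are cut at the lowest line; open symbols on that line are libraries with 0 reads. The KO libraries lie between 4.3 and 53.1 for Camk1d and between 2.58 and 5.99 for Camk4, above both WT libraries in each.

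Camk4 showed the same kind of gap at a lower level. It had 2 reads in WT replicate 1 and 1 in WT replicate 2, and 122, 254 and 63 in the KO libraries. These are 0.0761 (95% interval 0.00922 to 0.275) and 0.0173 CPM (0.000439 to 0.0966) in WT and 3.85 (3.2 to 4.6), 5.99 (5.28 to 6.78) and 2.58 (1.98 to 3.3) in KO. No KO library came near the WT libraries, and the spread within KO was 2.32-fold, much narrower than that of Camk1d. Pooled over libraries KO was 125 times as high as WT, with a 95% counting interval of 42.4 to 607, and the fitted log2 fold change was 6.45 (SE 1.88), or 5.39 with a prior count of 2. Against WT replicate 1 alone it was 5.69, and against WT replicate 2 alone, with its 1 read, 7.63. Of the 6 T lymphocyte markers, Cd3d was at 0 in every library, and their sum was 3.58 and 2.03 CPM in the WT libraries against 3.07 to 4.22 in KO. Of the 7 nerve and Schwann cell markers, Rbfox3 was at 0 in every library, and their sum was 1.83 and 24.9 CPM in the WT libraries against 14.6 to 34.9 in KO. Sox10 of that list stood at 1.48 and 0.78 CPM in WT against 3.32, 3.77 and 2.33 in KO. Syn1 stood at 0.0761 and 0.0347 CPM in WT against 0.0948 (the level of 3 reads), 2.34 and 1.27 in KO. Both thus had every KO library above both WT libraries, and 0 of the 7 had every KO library below. Among the T lymphocyte markers 0 of 6 went either way. The part of these cells in the Camk4 level was not tested. Camk4 shares 72 of its 3259 nt of exon with the antisense gene 2310026I22Rik, and reads from that stretch cannot be told apart.

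The upstream kinases were present at modest levels. Camkk2, whose enzyme activates both the CaMK cascade and AMPK, stood at 5.59 and 15.2 CPM in the WT libraries against 14.9, 22.5 and 12.8 in KO. WT replicate 1 was the lowest library and the groups overlapped (log2 fold change 0.69, SE 0.68, and 1.58 without WT replicate 2). Without WT replicate 1 it was 0.11. Camkk1, which encodes the other upstream kinase, was at 0 reads in WT replicate 1 and in KO replicate 2. It was at 2.79 CPM in WT replicate 2 and at 1.39 and 4.46 in KO replicates 1 and 3. Presence and absence thus did not follow the groups for Camkk1, and the sign of its log2 fold change (0.48, SE 2.86) turned to -1.01 without KO replicate 3, to -0.55 without WT replicate 1 and to -0.08 in limma-voom. Without WT replicate 2 it was 8.93, where the WT library left has 0 reads.

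Among the CaMKII genes, Camk2d was the main transcript in every library. Its level was 360 (95% interval 353 to 368) and 134 CPM (131 to 137) in WT and 175, 278 and 260 in KO. All KO libraries lay between the WT libraries, which differed 2.68-fold. The log2 fold change was -0.06 (SE 0.50). Leaving out WT replicate 2 gave -0.60, and leaving out WT replicate 1 gave 0.79. It also turned sign with library totals as the only scaling (0.15), in limma-voom (0.11) and without KO replicate 1 (0.09). Cardiomyocyte markers differed 548-fold between the WT libraries, so the Camk2d level of 134 CPM in WT replicate 2 was measured in a library where those markers summed to 102 CPM.

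Camk2g encodes the other widely expressed CaMKII subunit. It stood at 6.77 and 1.70 CPM in the WT libraries against 9.38, 5.35 and 7.45 in KO, with KO replicate 2 inside the WT range. The log2 fold change was 0.81 (SE 0.97), but 0.13 without WT replicate 2 and 2.09 without WT replicate 1.

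Camk2b, whose protein ties CaMKII to actin filaments, had 24 and 0 reads in WT and 101, 384 and 265 in KO. Its level was 0.913 CPM (95% interval 0.585 to 1.36) and 0 in WT and 3.19 (2.6 to 3.88), 9.06 (8.17 to 10.0) and 10.8 (9.58 to 12.2) in KO. Every KO library was above both WT libraries, also beyond the counting intervals, and KO replicate 1 was again the lowest of the KO libraries. The log2 fold change was 4.09 (SE 2.16), with 11.21 without WT replicate 1 (the WT library left has 0 reads), 3.07 without WT replicate 2 and 2.74 within the libraries that share a title code. Among cardiomyocyte markers Myh6 likewise was higher in every KO library, at 583 and 2.29 CPM in the WT libraries against 1311, 1901 and 2461 in KO, whereas Actc1 was highest in WT replicate 1, at 31260 CPM against 14313 to 17613 in KO. The part of heart muscle in the Camk2b level was not tested.

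Camk2a went with no group. It stood at 4.53 and 0 CPM in the WT libraries against 4.33, 1.51 and 0.246 in KO, where KO replicate 3 had 6 reads, a range of 17.6-fold within KO. Its log2 fold change of -0.16 (SE 2.44) was -1.16 without WT replicate 2 and -1.39 without KO replicate 1. It turned sign to 9.31 without WT replicate 1, where the WT library left has 0 reads, to 0.02 and 0.37 without KO replicates 2 and 3, to 3.43 in limma-voom and to 0.13 with library totals as the only scaling.

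Per kb of transcript, Camk2d made up 95.7 and 98.1% of the CaMKII level in WT and 88.3, 92.7 and 90.9% in KO. Camk2b made up 0.325 and 0% in WT and 2.16, 4.05 and 5.08% in KO. These shares need no scaling between libraries, and the groups did not overlap in either. As parts of a whole, a lower Camk2d share and a higher Camk2b share are not separate observations. The Camk2d level itself overlapped between the groups. By reads alone, without dividing by length, Camk2d held between 91.2 and 98.8% in all libraries. The summed CaMKII level was 68.2 and 24.8 CPM per kb in WT and 35.8, 54.2 and 51.7 in KO. The counting may have divided or dropped reads from coding sequence that these close paralogs share, so the small shares are uncertain to that extent.

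**Figure D3:**
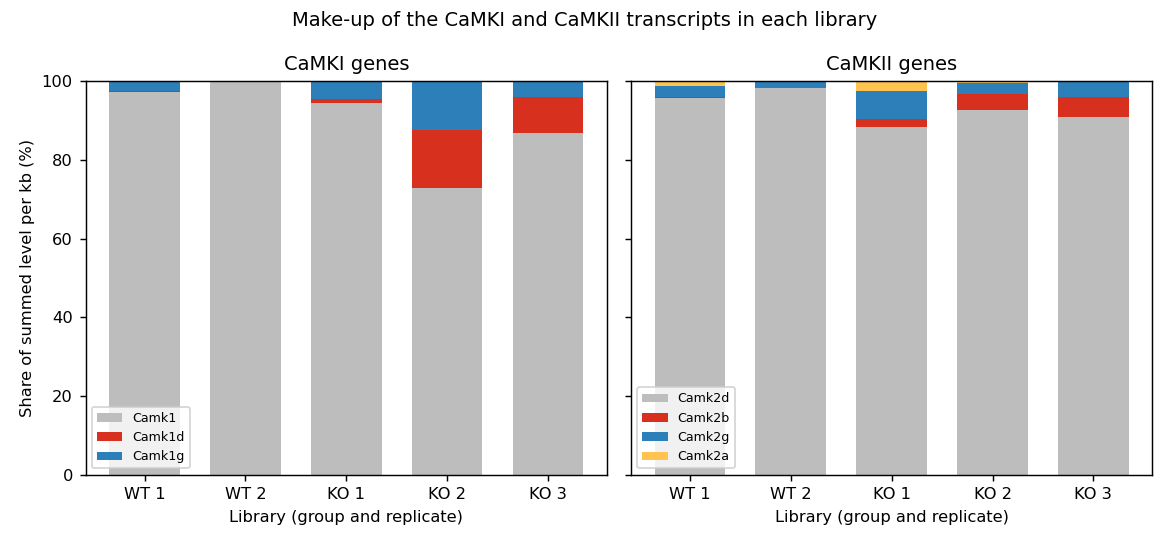
Share of each gene in the summed level per kb of transcript of the 3 CaMKI genes (left) and the 4 CaMKII genes (right), with 1 bar a library. Camk1d takes 0.931 to 14.6% of the CaMKI level in KO and at most 0.00523% in WT, and Camk2b takes 2.16 to 5.08% of the CaMKII level in KO and at most 0.325% in WT.

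Ordered by mean level per kb over the 5 libraries, the family fell into 2 tiers. Camk1 (66.7 ± 23.4 CPM per kb, SD, n = 5) and Camk2d (43.7 ± 16.1) came first, with overlapping ranges and with Camk1 above Camk2d in 4 libraries. Every other member was at most 7.62 CPM per kb in every library, while Camk2d did not go below 24.3. In this lower tier Camk1d (3.12 ± 3.99), Camk1g (3.07 ± 2.23) and Camkk2 (2.92 ± 1.25) were followed by Camk2g (1.66), Camk2b (1.16), Camk4 (0.921), Camkk1 (0.465) and Camk2a (0.427). No neighbours in the lower tier differed beyond the range of their values. Camk1d reached its place through KO alone, where it averaged 5.19 ± 3.96 CPM per kb (n = 3) against 0.00273 in WT.

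Across the family 4 of 10 members (Camk1d, Camk1g, Camk2b and Camk4) had every KO library above both WT libraries, and 0 of 10 had every KO library below them. Over all 14244 genes tested the corresponding shares were 13.5% and 11.1%. The edgeR quasi-likelihood test called 0 of 14244 genes (0%) at an adjusted p under 0.05, with a smallest adjusted p of 0.81. At an unadjusted p under 0.05 it had 832 genes, and on the same counts DESeq2 called 219 (1.6% of those it gave an adjusted p), the likelihood-ratio test 50 (0.351%) and limma-voom 0. Since the family was chosen from this contrast, nothing is read from these counts for the members.

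**Figure D4:**
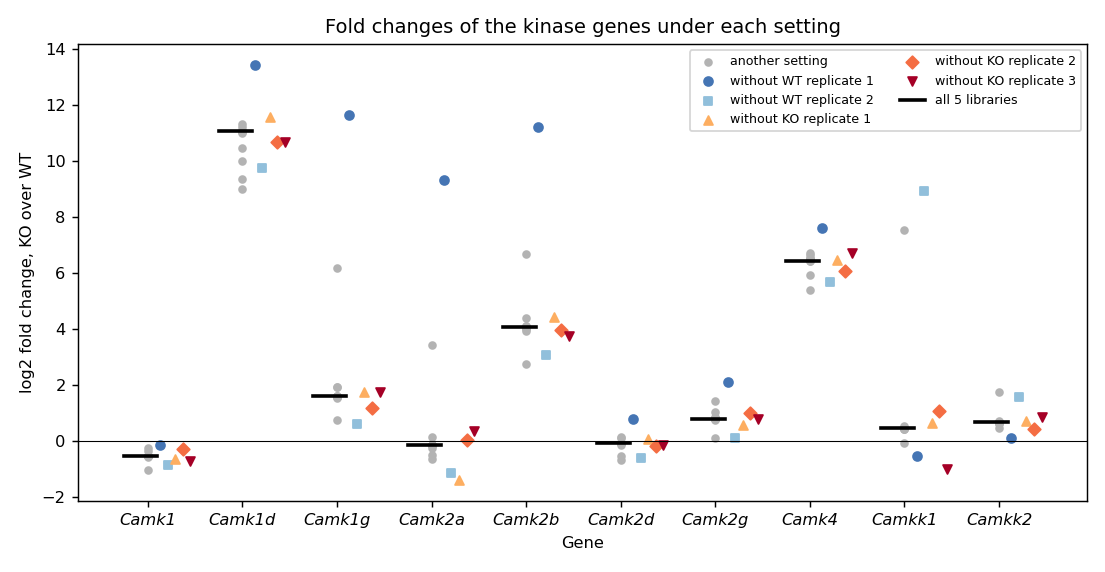
Log2 fold change of each kinase gene, KO over WT, with all 5 libraries (black lines), with 1 library left out (coloured symbols) and under the other settings (grey). Values of 7 and more for Camk1g, Camk2a, Camk2b and Camkk1 come from fits whose only WT library had 0 reads, and depend on the prior count; Camk1d and Camk4 stay at 5.39 or more in every fit shown.

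Beside the family, 60 other genes of calcium signalling in 6 groups were followed, of which 57 could be tested. Of these 0 were called higher and 0 lower (edgeR quasi-likelihood test, smallest adjusted p = 0.81). Positive fold changes were seen for 36 of the 57 and negative for 21, beside 49.4% positive over all genes. The median log2 fold change was 0.32 beside -0.01 over all genes. Every KO library was above both WT libraries for 8 of the 57 and below both for 4, beside 13.5% and 11.1% of all genes tested. The list's median was -0.14 after the dependence on transcript length had been taken out of each library (0.03 over all genes), and 0.50 without WT replicate 2 (0.25 over all genes).

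Of the genes that encode calmodulin itself, Calm2 and Calm3 had log2 fold changes of -0.55 and -0.42. Without WT replicate 2 that of Calm2 turned to 0.19. Calm3 stood at 90.3 and 76.3 CPM in the WT libraries against 66.2, 59.9 and 60.9 in KO, with no overlap (log2 fold change -0.42, SE 0.31, adjusted p = 0.884). Marcks, which encodes an actin-linked protein that binds calmodulin, stood at 50.5 and 41.6 CPM in the WT libraries against 102, 103 and 63.6 in KO (0.96, SE 0.38, adjusted p = 0.81, edgeR). Of the 6 genes tested in this group 2 were positive and 4 negative, and 0 passed.

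The inhibitors and phosphatases of the kinases were 4 genes, of which 3 were positive and 0 passed. Camk2n1, which encodes a protein inhibitor of CaMKII, stood at 0.799 and 1.54 CPM in the WT libraries against 2.37, 2.57 and 1.105 in KO. Ppm1e, a phosphatase that removes the activating phosphate of these kinases, was at 9.78 and 0 CPM in the WT libraries against 3.66, 11.3 and 9.33 in KO. Log2 values of KO over WT were 0.78 (SE 1.53) and 0.73 (SE 2.06), both with groups that overlapped. That of Ppm1e was -0.27 without WT replicate 2.

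Of 9 tested genes for other calmodulin-regulated kinases and relatives, 7 were positive and 0 passed. Mylk, which encodes the myosin light chain kinase of smooth muscle, stood at 1.90 and 0.607 CPM in the WT libraries against 2.53, 11.9 and 5.16 in KO (log2 fold change 2.38, SE 1.29, adjusted p = 0.825, edgeR). The 6 smooth muscle markers summed to 1480 and 680 CPM in the WT libraries against 755 to 1580 in KO, and overlapped. Of the 6, Cnn1 (68.9 and 14.3 CPM in WT, 115, 141 and 190 in KO) and Smtn (32.8 and 31.0 in WT, 46.3, 51.3 and 57.8 in KO) had every KO library above both WT libraries, as Mylk did; their part in the Mylk level was not tested. Dapk2, a death-associated kinase, was at 1.41 and 0 CPM in the WT libraries against 0, 21.3 and 64.3 in KO, so KO replicate 1 lacked it while the other KO libraries were high.

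For calcineurin, the phosphatase that calmodulin also activates, 3 of 8 genes were positive and 0 passed. Cabin1, which encodes an inhibitor of calcineurin, was at 14.8 and 23.4 CPM in the WT libraries against 36.6, 58.4 and 57.1 in KO, with no overlap (log2 fold change 1.41, SE 0.46, adjusted p = 0.81, edgeR). The lowest value of Cabin1 over all settings was 0.65, after removal of the length trend, and 1.08 when a library was left out. Ppp3ca, the catalytic alpha subunit, was at 33.4 and 114 CPM in the WT libraries against 54.0, 226 and 124 in KO, and the groups overlapped.

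Among 17 substrates and nuclear effectors 12 were positive and 0 passed. Hdac5, which encodes a histone deacetylase that leaves the nucleus when CaMK phosphorylates it, stood at 19.3 and 12.0 CPM in the WT libraries against 52.5, 41.7 and 34.2 in KO (log2 fold change 1.45, SE 0.47, adjusted p = 0.81, edgeR). Crem, a relative of CREB, was at 64.4 and 86.2 CPM in the WT libraries against 46.2, 37.7 and 26.3 in KO (-1.04, SE 0.40, adjusted p = 0.81, edgeR). The groups did not overlap for either, and both kept their sign in all 15 other settings.

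For calcium entry, stores and pumps, 9 of 13 genes were positive and 0 passed. Atp2b1 and Atp2b4 encode pumps that carry calcium out of the cell. Atp2b1 stood at 39.6 and 49.3 CPM in the WT libraries against 79.8, 149 and 68.7 in KO, and Atp2b4 at 7.0 and 8.25 against 28.9, 28.05 and 12.1. The fitted log2 values were 1.16 (SE 0.46) and 1.59 (SE 0.63), neither with overlap and both at adjusted p = 0.81 (edgeR). The lowest values over all settings were 0.40 and 0.29, both after removal of the length trend. When a library was left out they were at the lowest 0.74 and 1.36.

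**Figure D5:**
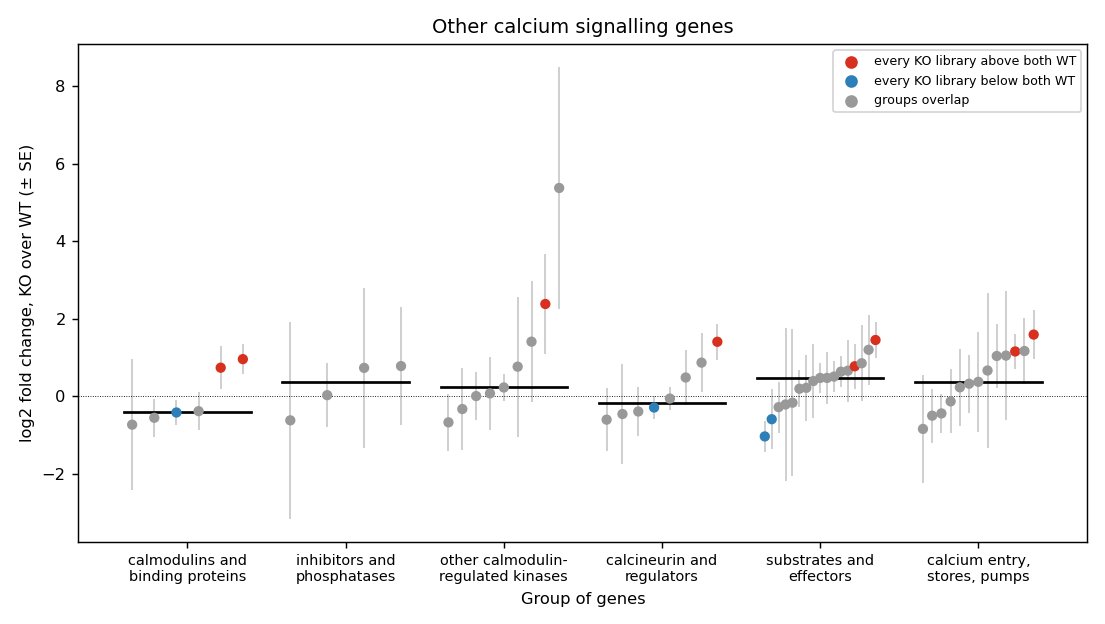
Log2 fold change, KO over WT, of 57 other calcium signalling genes in 6 groups, with SE as bars and the group medians as black lines. Red points (8 genes) have every KO library above both WT libraries and blue points (4 genes) every KO library below both. Over all genes tested these shares were 13.5% and 11.1%. In the list 0 genes passed the test.

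The 5 genes with the pattern most like Camk1d were taken by the root mean square difference of log2(CPM + 0.5), each gene centred on its mean over the 5 libraries, among 13132 genes with a mean of at least 1 CPM. Among them were Col4a6, a collagen IV chain (0.57), Aldh1l2, a mitochondrial folate enzyme (0.65), Rd3 (0.99) and Frmpd1 (1.02). Col4a6 was at 0.304 and 0.0173 CPM in the WT libraries against 3.10, 24.4 and 33.1 in KO. These 4 had KO replicate 1 as the lowest KO library, as Camk1d did. The ranking used the Camk1d levels of all 5 libraries, so it favoured genes with that order, which is no separate result. Within the family the likest were Camk2b (1.44) and Camk4 (1.78), and the least alike was Camk2a (3.43).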

How the data were processed

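The deposited table gives raw counts per gene for 5 libraries, made with a SMART-Seq v4 kit, which does not mark strand, per the labels' protocols. The submitters' processing notes name FastQC 0.11.5, cutadapt 1.11, HTSeq, DESeq2, mm10 and GRCm38. The authors' statistics columns were not used. Aligner and annotation are, for these libraries, not given in the sources used here. Totals were 23361414 to 53789026 reads. The deposited counts went into edgeR 4.0.16 (R 4.3.3). filterByExpr left 14244 of 17148 genes with a read, and libraries were scaled by TMM. KO was compared with WT by a robust two-sided quasi-likelihood test, with Benjamini-Hochberg adjustment over all genes and a threshold of 0.05. The script was tested on simulated data. Groups come from the titles, and replicates are numbered in order of deposit. No libraries held identical values (Pearson r of log2 levels across genes 0.773 to 0.909). Intervals and floors (3 reads) reflect counting error only, because reads amplified by PCR and carrying no molecular identifier are not independent. Lengths (longest transcript) and coordinates are from GENCODE M21, where 22750 of 24062 symbols matched directly and 933 through RefSeq synonyms. Promoters are from RefSeq (GRCm38.p6), which had entries for 7 members. Named genes were all members, the 2 genes of each of the 6 groups with the smallest p where none was called (up to 4 where called), and the 5 genes most like Camk1d. Some of the genes this rule and the lists hold are not reported here. Members and lists were chosen with earlier results of these data known. Alternatives were DESeq2 1.42.0, limma-voom (limma 3.58.1), the likelihood-ratio test, other scalings, filters and prior counts, removal of the length trend, and leaving out libraries.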

Additional observations from a re-analysis of the deposited data

How the results depend on the processing

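The count of genes called, 0 in the quasi-likelihood test with all libraries, was 219 with DESeq2 and 50 with the likelihood-ratio test, and it ranged from 0 to 245 when a library was left out. The 245 came without WT replicate 1. Of the calcium signalling list 0 to 5 genes were called when a library was left out. The 5, also without WT replicate 1, were Ryr2, Mylk3, Rcan2, Cacna1c and Prkaa2, with 13.8 to 322 CPM in WT replicate 1 against 0 to 4.87 in the other. The list's median log2 fold change of 0.32 was 0.59 with limma-voom, -0.14 after removal of the length trend, 0.55 on the shared code alone and 0.16 to 0.50 when a library was left out. The fold change of Ppm1e turned to -0.015 after removal of the length trend, ranged from -0.27 (without WT replicate 2) to 11.29 (without WT replicate 1, where WT has 0 reads) and turned to -0.38 on the shared code alone. Of 150 values of the members under alternatives 128 moved by less than the spread between replicates, 22 moved by more and 12 turned sign, all 12 in Camk2a, Camk2d and Camkk1. The cause was not tested. With library totals as the only scaling the median of all genes was 0.10 in place of -0.01. The fits on WT replicate 1 or 2 alone have a single WT library, assumed to vary like the others. No paired analysis was possible because the replicate numbers are in order of deposit and pair no libraries. The 5 genes most like Camk1d were the same 5 at a minimum of 5 CPM. Depth limits what can be said of low genes: 3 reads were 0.052 to 0.123 CPM.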

Other observations

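The genes that flank Camk1d on chromosome 2 gave a description of the locus, chosen after the Camk1d values were seen. Cdc123, the nearest protein-coding gene before its start, stood at 194 and 123 CPM in the WT libraries against 109, 92.9 and 88.2 in KO, below both WT libraries in all 3 (log2 fold change -0.71, SE 0.34, adjusted p = 0.81, edgeR quasi-likelihood test). Nudt5, the gene beyond it, stood at 112 and 26.2 CPM in the WT libraries against 40.5, 34.04 and 25.6 in KO. On the other side Ccdc3 stood at 6.51 and 1.04 CPM in the WT libraries against 2.97, 2.31 and 1.76 in KO, and Optn, an autophagy receptor, at 8.3 and 12.2 in WT and at 47.4, 11.0 and 13.8 in KO. None of these 4 neighbours was near 0 in both WT libraries as Camk1d was.

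At least 1 library had 0 reads, whatever the coverage in the others, for 2546 of 14244 genes tested (17.9%), and for 5 of the 10 kinase genes. WT replicate 2 had 0 reads for 943 genes (6.62%), among them Camk1d, Camk1g, Camk2a and Camk2b, although it was the deepest library. Between the WT libraries, 287 genes (2.01%) had 0 reads in WT replicate 2 and at least 100 in WT replicate 1, as Camk1g and Camk2a did, and 414 (2.91%) had the reverse, as Camkk1 did.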
